A study of Homo sapiens with 18 samples.

Results

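The 8 genes described here encode the Fos proteins (FOS, FOSB, FOSL1, FOSL2), the Jun proteins (JUN, JUNB, JUND) and ATF3, which together form the transcription factor AP-1. They were chosen by symbol, not by their counts, and are 8 of the 61487 gene identifiers in a table of raw counts. All 8 passed the filter on low counts, which left 18544 genes for testing. RNA was sequenced from MSC-hTERT, a line of human mesenchymal stem cells immortalized with telomerase (hTERT). Its cells carried pMSCV (a retroviral vector, and here the control), SRF, or a fusion of SRF to 1 of RELA, PDGFRB, ICA1L and FOXO1, and the study compared these conditions. The fusion groups are labelled SRF-RELA, SRF-PDGFRB, SRF-ICA1L and SRF-FOXO1. Each of the 6 groups has 3 libraries, numbered 1, 2 and 3. All groups share the cell line and a growth medium that held serum, FGF-2, ascorbic acid, heparin and antibiotics. The labels give neither what a replicate number marks nor whether the libraries of a group came from separate cultures, so p-values measure the spread between these libraries, which may be technical. In such bulk samples, fewer cells expressing a gene and less RNA per cell cannot be told apart.

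AP-1 is a dimer of basic leucine zipper (bZIP) proteins. Fos proteins pair only with partners such as the Jun proteins, whereas Jun proteins also pair with each other, and ATF3 pairs with itself or with Jun proteins. FOS, FOSB, JUN, JUNB and ATF3 are immediate early genes, whose transcription rises within minutes of serum, growth factors or stress and whose mRNAs are short-lived. FOSL1 and FOSL2 usually follow later, and JUND is broadly expressed. SRF, with its ternary complex cofactors, binds CArG boxes that drive the serum response of FOS. Mesenchymal stem cells are stromal cells in which AP-1 takes part in proliferation, matrix remodelling and bone differentiation.

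The promoter letters are shown as a description, and whether they bear on the shifts between libraries was not tested. Of the 8 members, 7 (all but FOSL1) matched an entry of the RefSeq promoter set (build GRCh38.p14). An entry spans 250 bases before to 50 bases after a gene's start, and there are 8 entries because ATF3 has more than 1 start. The motif TGACGT, the core that CREB and ATF proteins bind, was found in 4 members (FOS, FOSB, FOSL2 and JUND), and in 7.98% of all 35116 promoters. The longer motif TGACNTCA, which ATF and Jun dimers bind, was found in 3 members (JUN, JUND and ATF3), and in 7.72% of all promoters. In JUND the site TGACGTCA is a match to both, so that these motifs overlap there. Both strands were searched, and a match is a description of letters, not a site shown to be bound. Stretches upstream of the start are printed 5′ to 3′ on the gene's strand, and capitals mark the matches to these motifs. The second stretch of capitals in JUND is a match on the opposite strand.
FOS chr14:75278708-75278773 plus strand: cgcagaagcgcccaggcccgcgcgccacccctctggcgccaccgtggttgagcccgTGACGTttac
FOSB chr19:45467876-45467994 plus strand: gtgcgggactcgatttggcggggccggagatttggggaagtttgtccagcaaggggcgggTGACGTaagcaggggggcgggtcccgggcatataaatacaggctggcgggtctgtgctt
FOSL2 chr2:28392738-28392801 plus strand: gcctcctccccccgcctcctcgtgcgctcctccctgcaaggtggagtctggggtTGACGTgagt
JUN chr1:58784096-58784125 minus strand: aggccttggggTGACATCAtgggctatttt
JUND chr19:18281682-18281837 minus strand: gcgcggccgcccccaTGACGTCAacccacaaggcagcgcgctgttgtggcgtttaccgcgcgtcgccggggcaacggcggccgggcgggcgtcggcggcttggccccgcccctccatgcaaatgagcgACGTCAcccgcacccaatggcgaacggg
ATF3 chr1:212565257-212565333 plus strand: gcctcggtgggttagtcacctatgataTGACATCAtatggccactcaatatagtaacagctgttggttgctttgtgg

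The TGACGT match began at position -64 in FOS, -60 in FOSB and -66 in FOSL2, counted from the RefSeq start. The TATA motif TATAAA was found in 4 members (FOS, FOSB, JUNB and, at its second start, ATF3), and in 11.5% of all promoters. In FOS, FOSB and JUNB it began at -33, -30 and -31. The AP-1 motif TGANTCA was found in FOSL2 alone, at positions 5 to 11 after the start, and in 7.71% of all promoters. The CArG box was found in 0 of the 7 members searched, which says only that the letters are not in this window, and in 1.29% of all promoters. The window ends 250 bases before the start, and bases further upstream were not searched, in FOS or in any other member.

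Library totals ran from 19362319 to 29806771 counts. SRF was raised in every group that carries it, from 60.96 ± 3.56 CPM (counts over the library total, on the usual scale; SD, n = 3) in pMSCV to between 182 ± 29.96 and 945 ± 236 CPM. FOXO1 counts did not check their label, since libraries labelled SRF-FOXO1 had 9.79 ± 3.99 CPM of it and pMSCV libraries 12.6 ± 4.27 CPM, so that group is called by its label throughout. The markers NT5E, ENG and THY1 of mesenchymal stem cells were present in all libraries, at 250 to 739, 116 to 197 and 36.8 to 239 CPM. The summed level of 7 markers of blood, endothelial and epithelial cells was 9.08 to 30.2 CPM. It overlapped between numbers, at 11.9 to 17.4, 9.08 to 30.2 and 9.85 to 24.0 CPM in numbers 1, 2 and 3. PECAM1 alone was at 4.31 to 28.0 CPM, and EPCAM was at 0 in 2 libraries. Between numbers, ENG was called lower in number 1 than in number 2 (-0.37 on the log2 scale, edgeR adjusted p 0.0183) and CD34, at 0.460 to 3.47 CPM over all libraries, lower in number 1 than in number 3 (-0.93, edgeR adjusted p 0.0156). The part of these markers in the results below was not tested. The mitochondrial share of counts was 4.52% to 5.16% in number 1, 4.37% to 5.28% in number 2 and 4.71% to 6.97% in number 3.

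FOS (ENSG00000170345, chr14:75278774-75282230 in GENCODE 29), the founding member and a classical SRF target, was high in the number 1 and 3 libraries of each group and low in number 2. In the order of numbers 1, 2 and 3, pMSCV libraries had 832, 13.6 and 622 CPM of FOS, and SRF libraries had 1114, 24.7 and 631 CPM. The libraries labelled SRF-FOXO1 had 706, 12.1 and 431 CPM, and SRF-ICA1L libraries had 836, 34.4 and 427 CPM. The SRF-PDGFRB libraries had 449, 21.2 and 381 CPM of FOS, and SRF-RELA libraries had 790, 32.0 and 407 CPM. Every number 2 library lay below every library of the other numbers, while all groups overlapped each other.

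FOSB (ENSG00000125740, chr19:45467995-45475179), a FOS paralogue best known from neurons and bone, showed a wider gap in the same direction. Its levels were 655, 2.32 and 309 CPM in pMSCV, and 784, 2.03 and 273 CPM in SRF, in the same order. In the libraries labelled SRF-FOXO1, FOSB was at 434, 4.50 and 258 CPM, and in SRF-ICA1L at 461, 2.81 and 203 CPM. In SRF-PDGFRB it was at 375, 3.33 and 198 CPM, and in SRF-RELA at 615, 3.37 and 215 CPM. Here all 3 sets separated, with the lowest number 1 library at 375 CPM above the highest number 3 library at 309 CPM, and the latter set far above the number 2 libraries.

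FOSL1 (ENSG00000175592, chr11:65892049-65900573 on the minus strand), which encodes FRA1, a later and more stable Fos protein without the FOS transactivation domain, varied less and differed more by group. It was at 27.2, 24.1 and 27.0 CPM in pMSCV, and at 18.6, 14.8 and 23.7 CPM in SRF. The libraries labelled SRF-FOXO1 held 26.1, 11.04 and 22.5 CPM of FOSL1, and SRF-ICA1L libraries 14.7, 6.22 and 13.7 CPM. The SRF-PDGFRB libraries held 42.4, 18.2 and 26.2 CPM, and SRF-RELA libraries 19.1, 9.68 and 14.7 CPM. The number 2 library was the lowest of its group in all 6 groups, yet the number 2 library of pMSCV lay above all 3 libraries of SRF, of SRF-ICA1L and of SRF-RELA.

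FOSL2 (ENSG00000075426, chr2:28392448-28417312), which encodes FRA2, did not follow FOS. The lowest, median and highest of the 6 libraries were 149.6, 223 and 255 CPM in number 1, and 245, 282 and 329.7 CPM in number 2. In number 3 they were 189, 279.9 and 338 CPM. FOSL2 thus had its lowest median where FOS had its highest, and all sets overlapped.

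JUN (ENSG00000177606, chr1:58780788-58784327 on the minus strand), the main transactivating partner of the Fos proteins, was lowest in number 2. Its lowest, median and highest levels there were 128, 175 and 253 CPM, against 259, 296 and 385 CPM in number 1 and 325, 362 and 383 CPM in number 3. JUNB (ENSG00000171223, chr19:12791496-12793315), which can restrain JUN, was at 96.9, 158 and 179 CPM in number 2, against 184, 313 and 435 CPM in number 1 and 257, 274 and 349.6 CPM in number 3. For both genes the number 2 libraries lay below all others, and numbers 1 and 3 overlapped. JUND (ENSG00000130522, chr19:18279760-18281622 on the minus strand), the least inducible Jun gene, had the narrowest spread of the Jun genes, with 81.6 to 106 CPM in number 2, 125 to 161 CPM in number 1 and 114 to 141 CPM in number 3. Exons of JUNB share 259 of 1820 bases with HOOK2 on the opposite strand in GENCODE 29. Since the use of strand in counting is not given in the sources used here, reads there cannot be assigned to either gene with certainty.

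ATF3 (ENSG00000162772, chr1:212565334-212620777), a stress-induced bZIP factor that often represses, parted number 1 from both other numbers. It was at 53.5, 1.25 and 5.16 CPM in pMSCV, at 72.7, 1.38 and 4.03 CPM in SRF, and at 41.8, 4.15 and 3.75 CPM in those labelled SRF-FOXO1. SRF-ICA1L libraries had 44.9, 1.18 and 1.71 CPM of ATF3, SRF-PDGFRB libraries had 36.2, 3.98 and 5.78 CPM, and SRF-RELA libraries had 42.7, 2.38 and 2.38 CPM. ATF3 was thus high in 6 libraries, whereas FOS and FOSB were high in 12, and its number 2 and 3 sets overlapped.

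**Figure D1:**
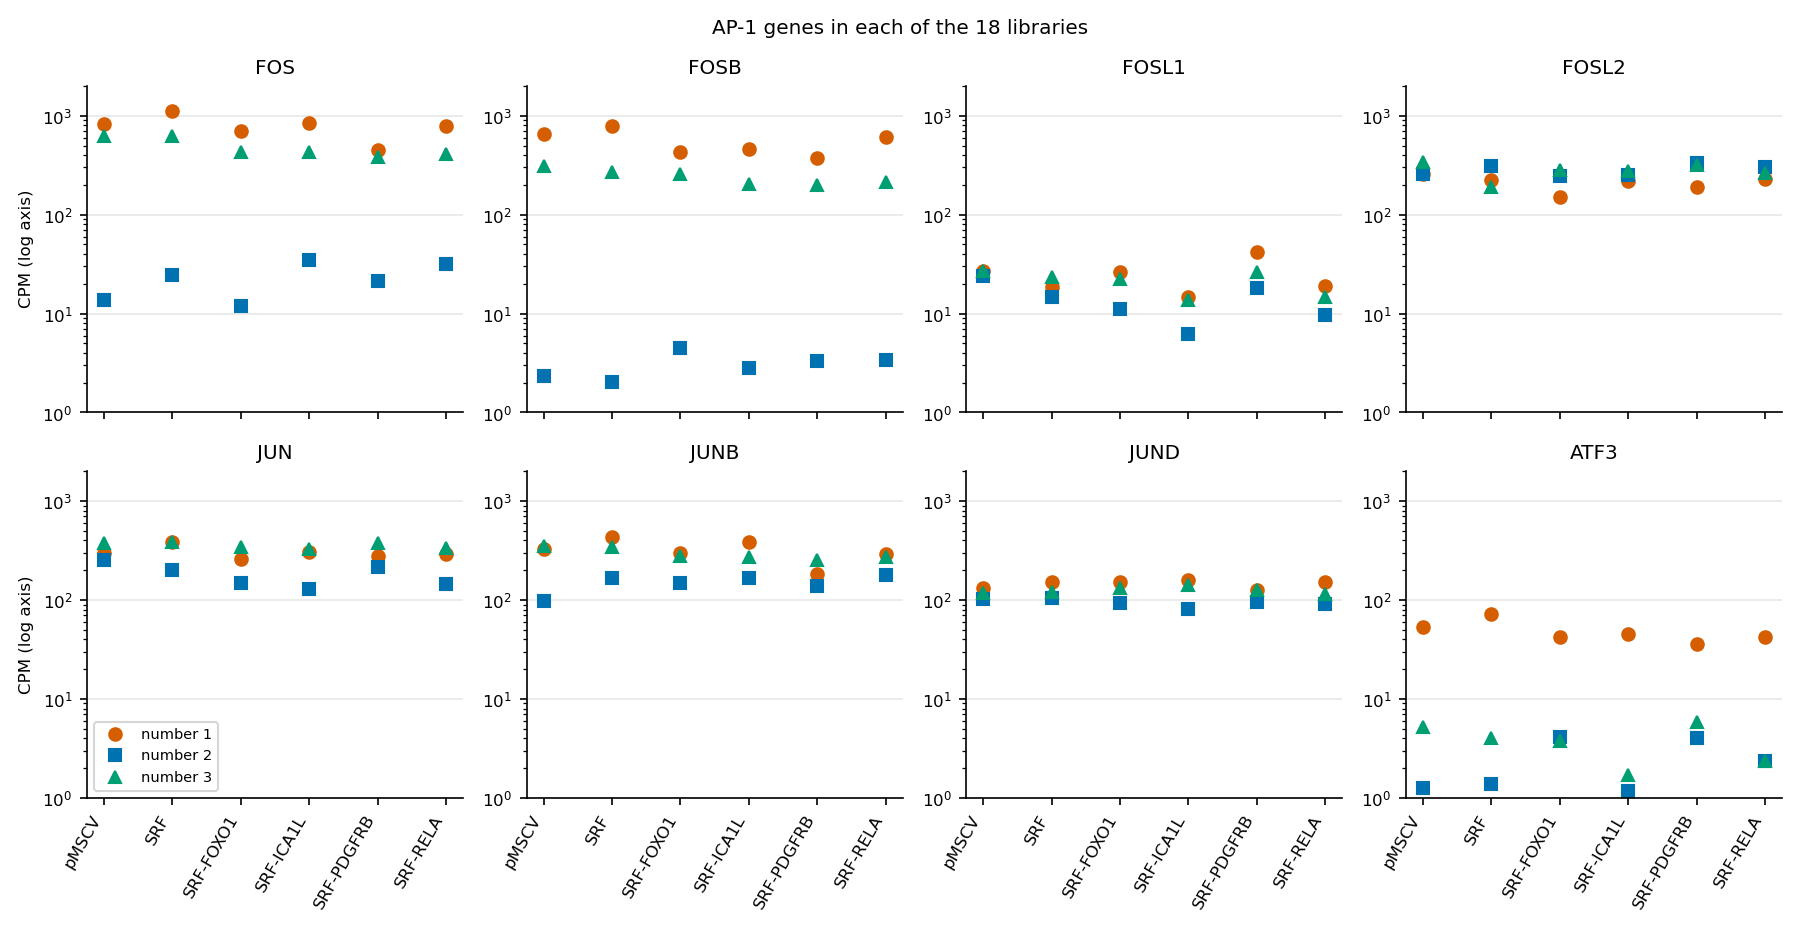
CPM (log axis) of each AP-1 gene in the 18 libraries, by group along the x axis, with 1 point per library and circles, squares and triangles for numbers 1, 2 and 3. FOS and FOSB sit at 12.1 to 34.4 and 2.03 to 4.50 CPM in the 6 number 2 libraries and at 198 CPM or more in the other 12, while ATF3 is high in the number 1 libraries alone.

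The split of the variance puts these patterns side by side. Log2 CPM was here scaled by TMM, with a prior count of 2. Of the summed squares of log2 CPM over the 18 libraries, the share between replicate numbers was 98.8% for FOSB, 96.2% for FOS and 91.9% for ATF3. It was 80.5% for JUN, 78.3% for JUND, 67.3% for JUNB, 45.05% for FOSL2 and 35.4% for FOSL1. The median over all tested genes was 21.0% between numbers and 33.4% between groups. FOSL1 was the member with the largest share between groups, 53.6%, against 0.19% for FOSB and 1.66% for FOS.

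Replicate numbers were then contrasted in a fit with both group and number, by edgeR's quasi-likelihood test with Benjamini-Hochberg adjustment over all tested genes. The 6 libraries of a number, 1 per group, served as its replicates, although libraries of equal number varied together. The p-values thus measure how steady a difference was over the groups, not whether it would recur in another set of libraries. Between numbers 1 and 2, 8 of 8 members were called at an adjusted p-value under 0.05, of which 7 were higher in number 1 and FOSL2 was lower. In this comparison 15.9% of all tested genes were called. FOSB was higher in number 1 by 7.41 on the log2 scale (SE 0.25, edgeR adjusted p 1.95e-10), a 170.2-fold difference, and FOS by 5.05 (SE 0.26, edgeR adjusted p 3.18e-08), or 33.2-fold. ATF3 was 20.5-fold higher (log2 fold change 4.36, SE 0.35, edgeR adjusted p 3.93e-06). The other members differed far less, and the Jun genes by 0.58 (JUND) to 1.02 (JUNB), with JUN at 0.73, and FOSL1 by 0.82. FOSL2 was lower, at -0.47 (SE 0.13, edgeR adjusted p 0.0247), and its call was lost in 6 of 12 fits that each left out 1 library, at up to 0.0714 without SRF-PDGFRB replicate 1. Libraries of the compared numbers did not overlap for 6 members, all but FOSL1 and FOSL2, which 4.00% of all tested genes also showed.

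Between numbers 3 and 2, 6 of 8 members were called, all higher in number 3, against 9.98% of all tested genes. FOSB was higher by 6.21 (SE 0.24, edgeR adjusted p 3.70e-09) and FOS by 4.36 (SE 0.25, edgeR adjusted p 4.86e-07) on the log2 scale. JUN differed by 0.95, JUNB by 0.92, FOSL1 by 0.62 and JUND by 0.34. ATF3 had 0.59 (SE 0.36, edgeR adjusted p 0.313) and FOSL2 -0.10 (SE 0.13, edgeR adjusted p 0.670), neither past the threshold. The libraries did not overlap for 5 members, FOS, FOSB and the 3 Jun genes, against 3.14% of all tested genes.

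Between numbers 1 and 3, 4 of 8 members were called, all higher in number 1, against 16.0% of all tested genes. ATF3 stood out with a log2 difference of 3.77 (SE 0.33, edgeR adjusted p 1.50e-05), or 13.7-fold. FOSB was 2.30-fold higher (log2 fold change 1.20, SE 0.19, edgeR adjusted p 0.000634). FOS, at 0.69 (SE 0.22, edgeR adjusted p 0.0430), and JUND, at 0.23 (SE 0.07, edgeR adjusted p 0.0444), lay near the threshold, and each lost its call in 10 of 12 fits that left out 1 library. Without SRF replicate 1, for example, FOS had an edgeR adjusted p of 0.120 and JUND of 0.101. The libraries did not overlap for 2 members, FOSB and ATF3, against 5.01% of all tested genes. The 3 contrasts of numbers share libraries, so they are given side by side and are not separate evidence.

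**Figure D2:**
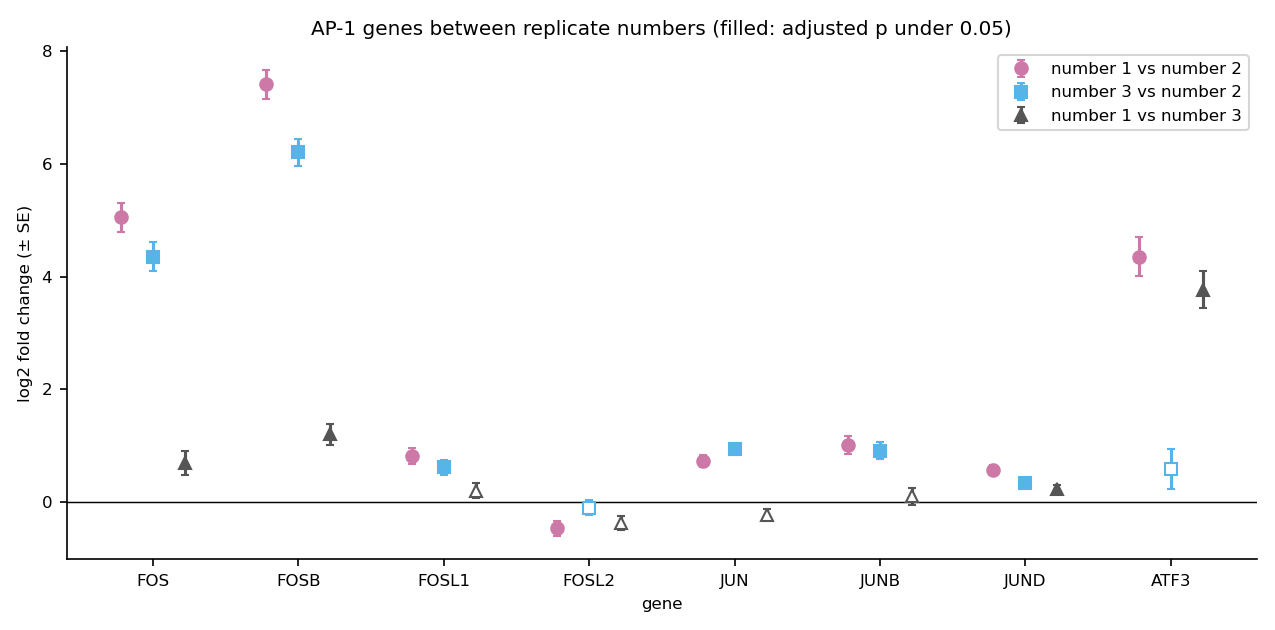
Log2 fold change (± SE) of each AP-1 gene in the 3 contrasts of replicate numbers, from the edgeR fit with group and number over 18 libraries, with filled symbols for an adjusted p under 0.05. FOS and FOSB lie above 4 in both contrasts with number 2, ATF3 in those with number 1 lies at 3.77 and 4.36, and FOSL2 lies below 0 in all 3.

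Levels of different genes were compared per kilobase of GENCODE 29 exon length, which may differ from the annotation the authors used. On this scale FOS and FOSB made up most of the Fos mRNA in numbers 1 and 3, and FOSL2 in number 2. FOSL2 took 67.7% to 76.8% of the summed Fos level in number 2 libraries, 5.99% to 10.4% in number 1 and 9.33% to 20.9% in number 3. FOS took 7.82% to 21.3% in number 2, against 54.3% to 68.0% in number 1 and 55.7% to 68.9% in number 3. FOSL1 took 6.59% to 23.7% in number 2, the highest share being that of pMSCV. The FOSL2 share changed while its own level moved little, since the summed Fos level was 44.7 to 62.9 CPM per kb in number 2, against 255 to 527 in number 1 and 209 to 309 in number 3.

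Within the Jun genes the make-up was more even. JUNB had the largest median share per length in each number, at 52.5%, 45.9% and 48.1% in numbers 1, 2 and 3. The summed Jun level was 172 to 206 CPM per kb in number 2, 247 to 429 in number 1 and 306 to 363 in number 3. The ratio of the summed Fos to the summed Jun level was 0.256 to 0.334 in number 2, 0.992 to 1.27 in number 1 and 0.668 to 0.853 in number 3, with no overlap between numbers. These are ratios of mRNA and carry no measure of protein or of dimers.

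**Figure D3:**
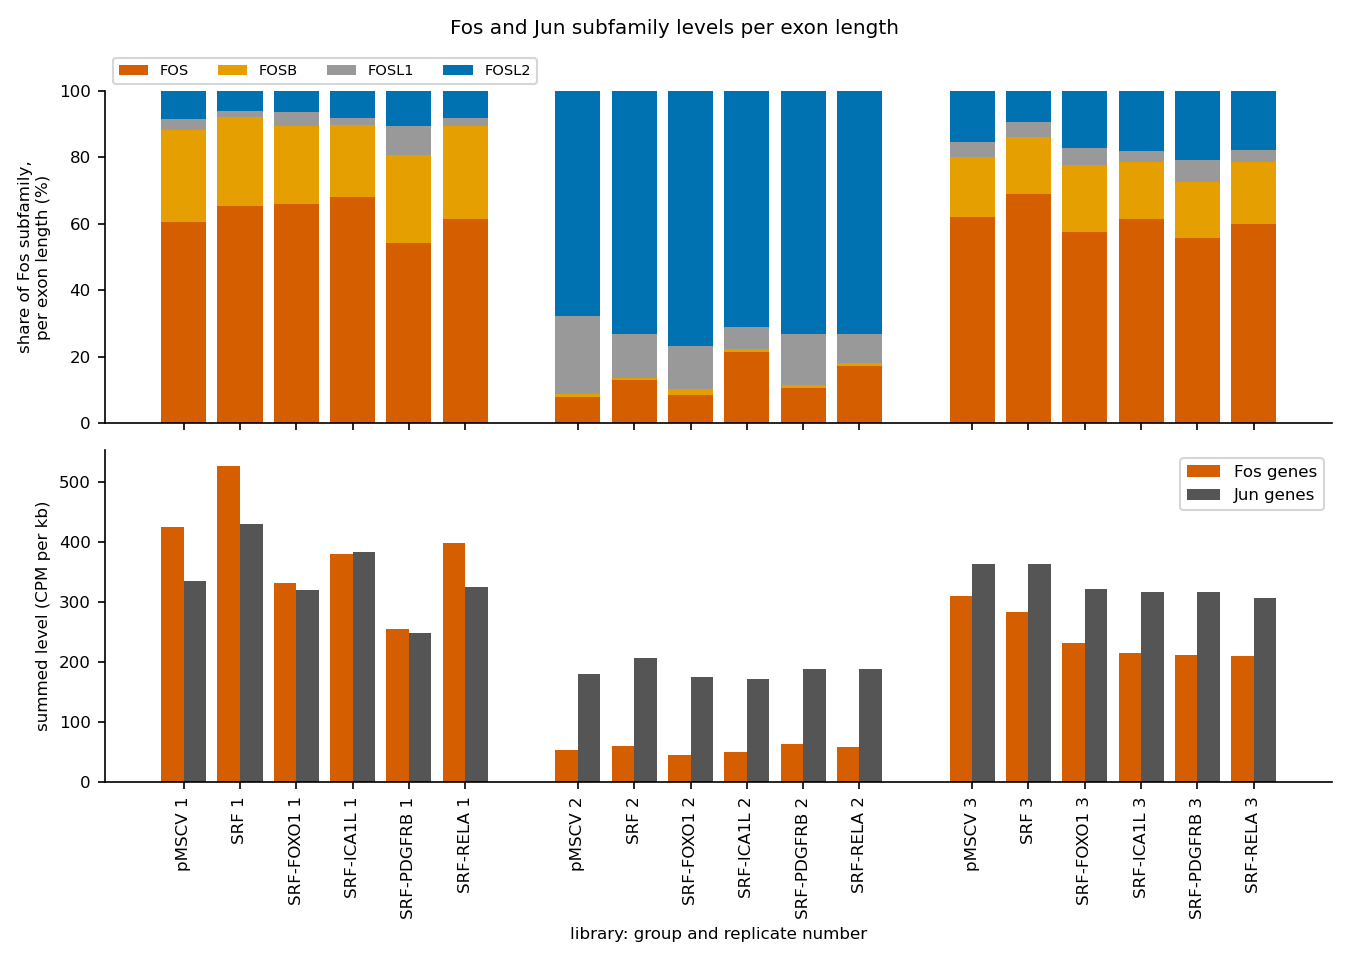
The upper panel shows the share (%) of FOS, FOSB, FOSL1 and FOSL2 in the summed Fos level per exon length, and the lower panel the summed level (CPM per kb) of the 4 Fos and 3 Jun genes, with 1 bar or pair of bars per library. FOSL2 takes 67.7% to 76.8% of the Fos level in the 6 number 2 libraries, and the Fos sum there is at most 62.9 CPM per kb.

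The groups were compared next, to see whether SRF or its fusions changed AP-1 expression. In the fit with group alone, 0 of 8 members were called in any of the 15 comparisons of groups. Of these 120 tests by edgeR, 4 had an unadjusted p under 0.05, and the smallest adjusted p was 0.150. DESeq2 made 1 call, FOSL1 in SRF-ICA1L against SRF-PDGFRB (adjusted p 0.0281), where it called 2.49% of all tested genes. The share of all tested genes called against pMSCV was 0.0270% in SRF, 0.183% in SRF-RELA, 0.0324% in SRF-PDGFRB, 0.469% in SRF-ICA1L and 0.928% in the libraries labelled SRF-FOXO1. Against SRF it was 0.388%, 0.146%, 0.782% and 1.36% in these fusions, in the same order. For SRF-FOXO1 against RELA, PDGFRB and ICA1L fusions it was 0.00539%, 0.717% and 0.0270%. For SRF-ICA1L it was 0.0108% against SRF-RELA and 0.820% against SRF-PDGFRB, and the latter against SRF-RELA gave 0.162%.

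The SE of FOS in these tests was several times smaller once replicate number was in the fit. In SRF against pMSCV, the log2 fold change of FOS was 0.31 with an SE of 1.61, and with replicate number as a block 0.39 with an SE of 0.31 (edgeR adjusted p 0.990 and 0.681). When libraries of equal number were paired, FOS and JUND were higher in SRF than in pMSCV in 3 of 3 pairs and FOSL1 was lower, and 32.9% of tested genes lay on one side in all pairs. FOS, FOSL1, FOSL2 and JUN were below pMSCV in 3 of 3 pairs in the libraries labelled SRF-FOXO1 (as were 25.2% of tested genes), and FOSL1, FOSL2 and ATF3 in SRF-ICA1L (31.6%). So were FOSL1 and JUN in SRF-RELA (24.6%), and JUN in SRF-PDGFRB (16.2%). With group alone, the median log2 fold change of the 8 members against pMSCV was 0.16 in SRF, -0.21 in SRF-RELA, -0.25 in SRF-PDGFRB, -0.16 in SRF-ICA1L and -0.25 in the libraries labelled SRF-FOXO1, while that of all tested genes was -0.01 to 0.01. With the block the members' medians were 0.09, -0.07, -0.10, -0.19 and -0.16 in the same order. These comparisons share the pMSCV libraries.

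FOSL1 was the member whose call depended on the replicate block. Against pMSCV its log2 fold change in SRF-ICA1L was -1.08 (SE 0.36, edgeR adjusted p 0.253) with group alone and -1.16 (SE 0.19, edgeR adjusted p 0.00279) with the block, which called 4.66% of all tested genes. In SRF-RELA it was -0.80 (SE 0.36, edgeR adjusted p 1.00) and -0.86 (SE 0.19, edgeR adjusted p 0.0437), with 0.971% called with the block. FOSL1 libraries of these groups lay wholly below those of pMSCV, as they also did in SRF. Such separation from pMSCV was shown by 21.7% of tested genes in SRF-ICA1L, 14.9% in SRF-RELA and 10.1% in SRF. FOSL1 in SRF-ICA1L was also wholly below SRF, where 15.3% of tested genes separated in either direction, and below SRF-PDGFRB, where 23.8% did. The gap to SRF was narrow, from 14.7 CPM in SRF-ICA1L number 1 to 14.8 CPM in SRF number 2.

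Between constructs, FOSL1 was lower in SRF-ICA1L than in SRF, with -0.66 (edgeR adjusted p 0.506) and, with the block, -0.71 (edgeR adjusted p 0.0456; 4.73% of tested genes called). It was 2.34-fold lower in SRF-ICA1L than in SRF-PDGFRB, with -1.23 (SE 0.36, edgeR adjusted p 0.150), and the block gave -1.23 (SE 0.19, edgeR adjusted p 0.00191; 4.76% called). SRF-PDGFRB exceeded SRF-RELA by 0.94 (edgeR adjusted p 0.908) and, with the block, by 0.92 (edgeR adjusted p 0.0312; 0.847% called). In SRF-PDGFRB against pMSCV, FOSL1 had 0.14 (SE 0.35, edgeR adjusted p 1.00), and the block gave 0.06. The 6 number 2 libraries were also left out, a choice made after seeing the data. The blocked call of SRF-ICA1L against SRF-PDGFRB then stood (-1.16, edgeR adjusted p 0.0257; 1.72% called), and the other 4 were lost with their direction kept. Against pMSCV the values were then -0.86 in SRF-ICA1L (edgeR adjusted p 0.0894) and -0.66 in SRF-RELA (0.511). They were -0.55 in SRF-ICA1L against SRF (0.323) and 0.96 in SRF-PDGFRB against SRF-RELA (0.151). With the block, the other 7 members had 0 calls in 105 tests by edgeR, 8 of them with an unadjusted p under 0.05, and a smallest adjusted p of 0.123. In the comparisons not given above the block called 0.243% (SRF), 0.178% (SRF-PDGFRB) and 7.03% (SRF-FOXO1) of all tested genes against pMSCV, and 1.73% (SRF-RELA), 2.34% (SRF-PDGFRB) and 7.23% (SRF-FOXO1) against SRF. Between fusions it called 0.0162% in SRF-ICA1L against SRF-RELA, and 0.167%, 4.35% and 0.911% in SRF-FOXO1 against the RELA, PDGFRB and ICA1L fusions.

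**Figure D4:**
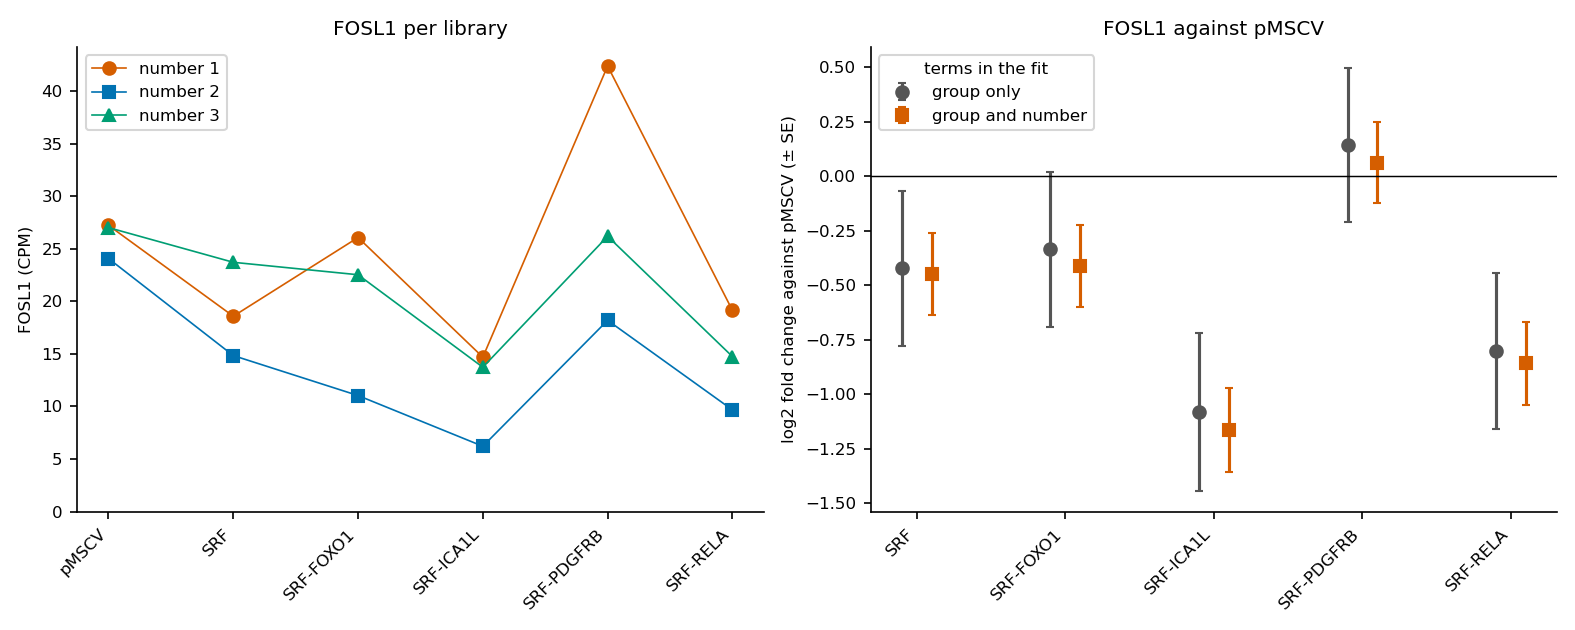
The left panel shows CPM of FOSL1 per library by group, with lines joining libraries of the same number, and the right panel its log2 fold change (± SE) against pMSCV in edgeR fits with group alone or with group and number. The SRF-ICA1L libraries lie at 6.22 to 14.7 CPM, below the pMSCV libraries at 24.1 to 27.2 CPM, and the SE falls from 0.36 to 0.19 with the number in the fit.

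In SRF-PDGFRB, FOS and JUNB were below SRF in 3 of 3 pairs, as were 18.2% of tested genes. The log2 fold change of FOS was -1.11 (SE 1.63, edgeR adjusted p 0.817), and the block gave -0.79 (SE 0.31, edgeR adjusted p 0.190). With group alone and without SRF replicate 1 it was -0.25. The number 2 libraries, where FOS is low, were also left out, a choice made after seeing the data. With the block FOS then had -1.07 (edgeR adjusted p 0.0336), with 0.899% of tested genes called. It was the 1 fit in which FOS was called between groups, and since the split was picked from these values it adds no support. JUNB had -0.76 (SE 0.45, edgeR adjusted p 0.530), and -0.67 (edgeR adjusted p 0.123) with the block. The lowest FOS level of any number 1 library, 449 CPM, was that of SRF-PDGFRB, and the highest, 1114 CPM, that of SRF.

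The 5 tested genes, members left out, whose profile over the 18 libraries was nearest to that of FOS were DUSP1, ZFP36, NR4A1AS, EGR1 and NR4A1. Likeness is the root mean square difference of log2 CPM after each gene's mean is removed, and it was 0.87, 1.11, 1.14, 1.14 and 1.20. FOSB, at 1.10, was the nearest member and lay between DUSP1 and ZFP36, followed by ATF3 at 1.77, JUNB at 1.81, JUN at 1.95, FOSL1 at 2.08, JUND at 2.09 and FOSL2 at 2.46. Profiles were not scaled to their own spread, so the measure reflects the size of the shifts as well as their shape. With FOS at rank 0 of 18544 tested genes, ATF3 ranked 47, JUNB 66, JUN 186, FOSL1 556, JUND 593 and FOSL2 15456. The 5 genes were chosen for likeness to FOS, so a split by number like that of FOS follows from the choice. DUSP1, a phosphatase of MAP kinases, had 143 to 357 CPM in number 1, 12.3 to 26.0 CPM in number 2 and 91.2 to 142 CPM in number 3. ZFP36, a protein that destabilizes short-lived mRNAs, had 99.0 to 291 CPM, 14.9 to 24.9 CPM and 50.3 to 134 CPM in the same order. EGR1, a zinc finger factor, and NR4A1, an orphan nuclear receptor, are further immediate early genes. NR4A1AS is named as antisense to NR4A1, and without a stated use of strand the reads of this pair cannot be told apart.

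Of 19 other immediate early genes, 14 were higher and 1, IER5, lower in number 1 against number 2 (78.9% called, beside 15.9% of all tested genes), with a median log2 fold change of 1.32 beside -0.002 over all tested genes. In number 3 against number 2, 10 were higher (52.6% beside 9.98%), with a median of 0.49. In number 1 against number 3, 11 were higher and IER5 lower (63.2% beside 16.0%), with a median of 0.87. KLF4, a zinc finger factor, was at 16.6 to 30.5, 2.82 to 5.15 and 7.35 to 15.9 CPM in numbers 1, 2 and 3. NR4A2, like ATF3, was highest in number 1, with medians of 71.9, 6.05 and 11.9 CPM. IER5 was lowest in number 1, with medians of 47.8, 59.2 and 80.1 CPM, and was 1 of the 10 called higher in number 3 against number 2. The list of 19 includes DUSP1, ZFP36, EGR1 and NR4A1, already named for likeness to FOS. It was drawn up with the levels of EGR1 by number known.

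Other bZIP genes, whose products can pair with these proteins or compete with them, were called at shares near those of all tested genes in both contrasts with number 2. Of 18 tested, 3 were called higher and 1 lower in number 1 against number 2 (22.2% beside 15.9%), and 2 were lower in number 3 against number 2 (11.1% beside 9.98%). In number 1 against number 3, 7 were higher and 1 lower (44.4% beside 16.0%). The medians over the list were 0.10, -0.16 and 0.17 on the log2 scale. JDP2, a repressor that pairs with Jun proteins, was higher in number 1 than in number 3 by 1.18 and lower in number 3 than in number 2, with -0.90. NFE2L1 was lower in number 1 than in number 2, with -0.40 (SE 0.09, edgeR adjusted p 0.00886). BATF and MAF, with at most 0.0693 CPM in any library, were not tested.

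Genes of the kinases and cofactors upstream of AP-1 were called at shares near those of all tested genes. Of 22 tested, 2 were called higher in number 1 against number 2 (9.09% beside 15.9%), 1 lower in number 3 against number 2 (4.55% beside 9.98%), and 3 higher in number 1 against number 3 (13.6% beside 16.0%), with medians of -0.001, -0.04 and 0.04. ELK3, a ternary complex factor that binds with SRF, was higher in number 1 than in number 2 by 0.33 and than in number 3 by 0.32. MAP2K7, a kinase of the JNK pathway, was higher in number 1 by 0.19 in both. RPS6KA3, a kinase downstream of ERK, was the 1 gene called lower, with -0.29 in number 3 against number 2.

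Of 19 tested genes known as AP-1 targets, 4 were called in each contrast (21.1%, beside 15.9%, 9.98% and 16.0% of all tested genes). In number 1 against number 2 these were 2 higher and 2 lower, in number 3 against number 2 all 4 were lower, and in number 1 against number 3 all 4 were higher, with medians of -0.01, -0.15 and 0.29. HMOX1, haem oxygenase, had 42.0 to 82.2 CPM in number 1, above the 12.4 to 29.3 CPM of number 2 and the 11.9 to 26.1 CPM of number 3. PLAU, the urokinase protease, was lower in number 1 than in number 2 (log2 fold change -0.95, SE 0.16, edgeR adjusted p 0.000946), and so was the cytokine IL11 (-1.12, SE 0.20, edgeR adjusted p 0.00161). Both were also lower in number 3 than in number 2, with -0.54 and -0.94. MMP1, interstitial collagenase, was higher in number 1 than in number 3 by 3.04 (SE 0.81, edgeR adjusted p 0.0251), over a wide spread of 11.7 to 70.4 CPM and 1.13 to 17.8 CPM.

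Of 11 tested stress response genes, 2 were higher and 2 lower in number 1 against number 2 (36.4% beside 15.9%). In number 3 against number 2, 1 was higher and 2 lower (27.3% beside 9.98%), and in number 1 against number 3, 2 were higher and 1 lower (27.3% beside 16.0%). The medians were -0.25, -0.09 and -0.003. PPP1R15A (GADD34), which directs the dephosphorylation of eIF2α, had 143 to 199.9 CPM in number 1, 29.6 to 46.5 CPM in number 2 and 60.02 to 91.9 CPM in number 3, with no overlap. Its log2 fold change in number 1 against number 2 was 2.04 (SE 0.06, edgeR adjusted p 2.53e-11). DDIT3 (CHOP) was higher in number 1 than in numbers 2 and 3, by 0.73 and 0.75. CHAC1 and TRIB3, targets of ATF4, were lower in number 1 than in number 2, with -1.05 and -0.51.

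**Figure D5:**
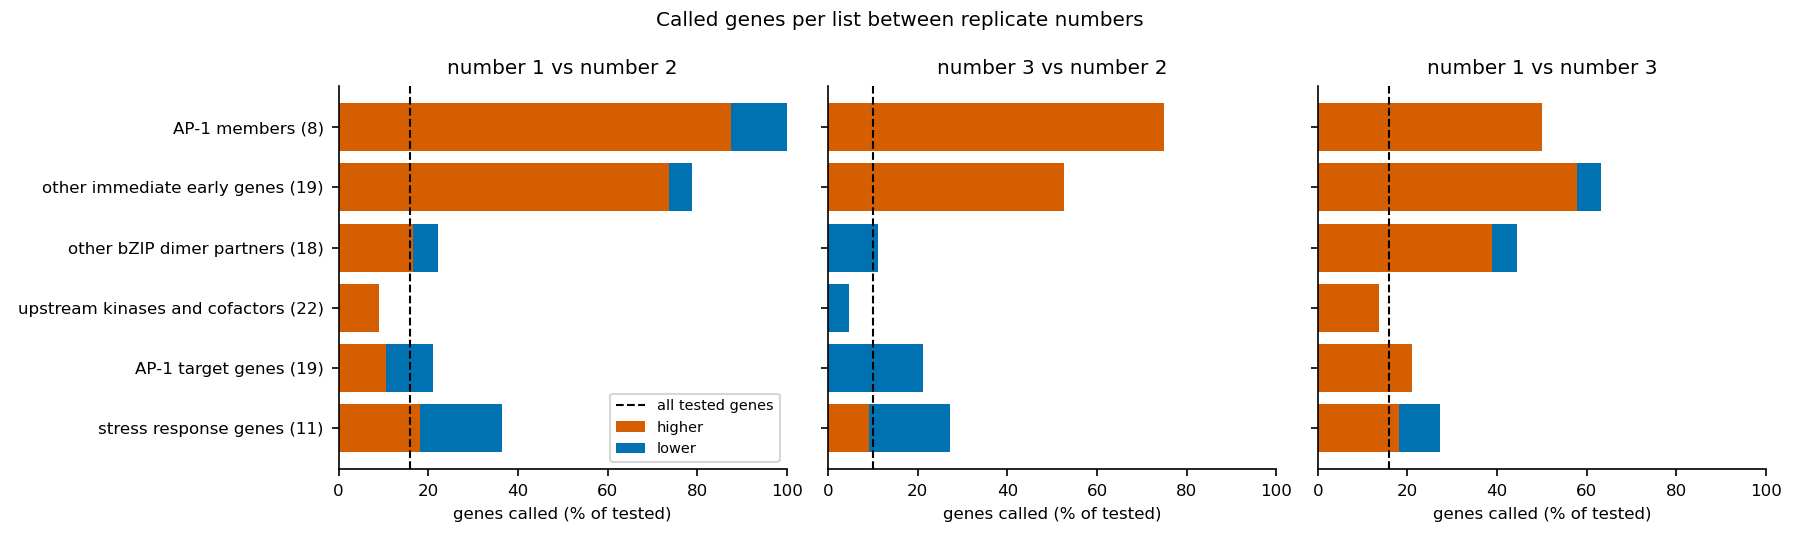
Share (%) of the tested genes of each list called higher (orange) or lower (blue) in the 3 contrasts of replicate numbers by edgeR, with the number tested in brackets and a dashed line at the share over all tested genes. AP-1 members and other immediate early genes lie well to the right of the line in all 3 contrasts, and kinases and cofactors lie near it.

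Against pMSCV, some genes of these lists were called with group alone. That fit called 0.928% of all tested genes in the libraries labelled SRF-FOXO1 and 0.469% in SRF-ICA1L. In the libraries labelled SRF-FOXO1, 2 of 19 AP-1 target genes rose, PLAU by 2.32 (SE 0.43, edgeR adjusted p 0.0214) and HBEGF, an EGF receptor ligand, by 1.51 (SE 0.27, edgeR adjusted p 0.0187). There 3 of 11 stress response genes also rose, CHAC1 by 2.44, PSAT1 by 1.74 and GADD45B by 1.13. In SRF-ICA1L, BTG2, an antiproliferative immediate early gene, rose by 1.53 (SE 0.23, edgeR adjusted p 0.00399), 1 of 19 such genes. With the block, 5 of 19 immediate early genes were called higher and 1 lower in SRF-ICA1L, beside 4.66% of all tested genes. Among them EGR2, named after its value was seen, rose by 2.40 (SE 0.23, edgeR adjusted p 4.87e-05). EGR2 was also called higher in SRF-RELA, by 1.65 (edgeR adjusted p 0.00143), where 0.971% of all tested genes were called. In the libraries labelled SRF-FOXO1, with 7.03% called, EGR2, IER5 and CCN2 were called higher, by 1.10, 0.80 and 1.15. IER5 rose by 0.83 in SRF-ICA1L. These too were named after their values were seen. In the same fit, 5 of 19 AP-1 target genes were called in SRF-ICA1L (26.3%, beside 4.66% of all tested genes), 3 in the libraries labelled SRF-FOXO1 (15.8% beside 7.03%) and 1, HBEGF, in SRF-RELA (5.26% beside 0.971%). The 5 in SRF-ICA1L, also named after their values were seen, were HBEGF, with 1.10, and HMOX1, PLAUR, VEGFA and MMP3, with -0.84, -0.85, -0.76 and -4.37. The value of MMP3 had an SE of 1.12 (edgeR adjusted p 0.0420). Its level was low, with a median of 1.21 CPM over all libraries and 0 in 1 library. Among stress response genes, the block also called TRIB3 (1.02) and GADD45A (0.79) higher in the libraries labelled SRF-FOXO1 (7.03% of all tested genes called). In SRF-ICA1L (4.66%) it called PSAT1 higher, by 1.17, and PPP1R15A lower, with -0.40. CHAC1 was called higher in SRF-RELA, by 1.43 (0.971%). These blocked calls were picked after their values were seen. The marker THY1 also rose against pMSCV in SRF-ICA1L and SRF-FOXO1, with a log2 difference of 1.91 for SRF-ICA1L (edgeR adjusted p 0.00683), and of 1.35 for the libraries labelled SRF-FOXO1 (edgeR adjusted p 0.0410). It was at 54.4 to 59.02 CPM in pMSCV, 152 to 239 CPM in SRF-ICA1L, 106 to 161 CPM in those labelled SRF-FOXO1 and 97.3 to 159.8 CPM in SRF-RELA. With the block CD34 was called higher in both too, by 1.69 (edgeR adjusted p 0.0114) and 1.28 (edgeR adjusted p 0.0394). The summed level of the 7 markers of other cells was 9.85 to 15.4 CPM in SRF-ICA1L, 9.08 to 15.4 CPM in those labelled SRF-FOXO1 and 11.004 to 22.3 CPM in pMSCV. The part of these markers in the changes of FOSL1 and of the listed genes was not tested.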

How the data were processed

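The authors deposited raw counts by Ensembl gene for the 18 libraries, 1 column each, per the file headers. Stranded mRNA libraries were made, per the labels' protocols. The submitters' processing notes name FastQC 0.11.8, Trimmomatic 0.39, HISAT2 2.12.1, featureCounts, Subread 2.0.3 and GRCh38, in no stated order. Which annotation was counted, and whether strand was used, is not given in the sources used here. CPM values are counts over the library total. The log2 CPM used for the split of variance, the likeness to FOS and the pairing was scaled by TMM, with a prior count of 2.

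Counts were filtered with filterByExpr (minimum count 10), scaled by TMM and tested with edgeR 4.0.16 in R 4.3.3, using robust two-sided quasi-likelihood F tests over all 18 libraries with Benjamini-Hochberg adjustment over 18544 genes. Comparisons of groups used group alone, and those of numbers used group and number. The SE of a log2 fold change is its size over the square root of F. Replicate numbers were taken to pair the libraries because, across genes, deviations from group means correlated over 0.1 in 44 of 45 same-number pairs (median 0.38, against -0.18 for 90 other pairs), and the exception was number 1 of SRF with SRF-FOXO1, at 0.087. Deviations within a group sum to 0, so the value for the other pairs follows from that of the same-number pairs and adds no separate support. The pairing is read from the values, not from the labels. Blocked values are given where they change a call of a member, and for only some genes of the other lists.

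Named genes are the members, the 5 genes nearest to FOS, and up to 3 called genes per list and direction, of which some are not reported here. Members, lists and tests were chosen with earlier results of these data known, among them the levels of FOS and EGR1 by number. Alternatives were DESeq2 size factors, total count scaling, a minimum of 10 counts in each library, no filter, only the compared groups or numbers, no group term, DESeq2 1.42.0, the replicate block and leaving out each library. In simulated counts for number 1 against number 2 (18234 genes), 92.9% of genes changed by 1 and 98.0% of those changed by 2 on the log2 scale were recovered. For SRF-FOXO1 against pMSCV (18233 genes) these shares were 62.2% and 90.2%. The changed genes were drawn at random, and no shift between numbers was simulated in that comparison. In the real counts FOS, FOSB and ATF3 had an SE of 1.61, 2.08 and 1.76 there, so these shares do not hold for them. Promoter letters and motifs are from RefSeq (GRCh38.p14), and exon lengths and positions are from GENCODE 29.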

Additional observations from a re-analysis of the deposited data

How the results depend on the processing

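Of 576 values of single members under an alternative, 528 kept their direction and side of the threshold, 34 lost a call, 12 gained one and 2 reversed. The reversals were of values without a call: FOSB in SRF-PDGFRB against SRF was 0.44 without SRF replicate 1 (range -1.89 to 0.44 over fits that left out 1 library), and FOSL2 in number 3 against number 2 was 0.016 without SRF replicate 3 (range -0.18 to 0.016). With the replicate block, the count of members called went from 0 to 1, FOSL1, in SRF-ICA1L and SRF-RELA against pMSCV, in SRF-ICA1L against SRF and SRF-PDGFRB, and in SRF-PDGFRB against SRF-RELA, and it changed no other count. DESeq2 gave 1 for SRF-ICA1L against SRF-PDGFRB, with 2.49% of all tested genes called. Leaving out the 6 number 2 libraries, chosen after seeing the data, gave with the replicate block 1 in SRF-PDGFRB against SRF and 1 in SRF-ICA1L against SRF-PDGFRB. In number 1 against number 3 the count of 4 became 2 with no count filter and with no group term, and ranged from 2 to 4 when 1 library was left out; FOS and JUND were the calls lost. With no group term, FOSL1 lost its calls in number 1 against number 2 (edgeR adjusted p 0.0824) and in number 3 against number 2 (0.256). The cause of these shifts was not tested. FOSL2 in number 1 against number 3 (-0.37, edgeR adjusted p 0.0696) was called with total count scaling (0.0496) and with DESeq2 (0.0454). Levels of ATF3 and FOSB in number 2 rest on as few as 29 and 53 counts, which limits the precision of those levels. Over fits that left out 1 library, FOS in SRF-PDGFRB against SRF ran from -1.67 to -0.25 and JUNB from -1.06 to -0.44. FOSL1 ran from -1.29 to -0.80 in SRF-ICA1L and -1.05 to -0.59 in SRF-RELA against pMSCV, -0.87 to -0.37 in SRF-ICA1L against SRF (the latter without SRF-ICA1L replicate 2), -1.47 to -0.85 against SRF-PDGFRB, and 0.56 (without SRF-PDGFRB replicate 1) to 1.19 in SRF-PDGFRB against SRF-RELA.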
